A study of Gallus gallus with 10 samples.

Results

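Midbrain-hindbrain tissue of chicken embryos that carried exogenous mouse Otx2 (OH) was set against the same tissue of control embryos (CH) across the 25443 genes of the deposited count table. The comparison rested on 4 of the 10 samples, chosen by labels that name the midbrain-hindbrain portion with exogenous OTX2 (OH1, OH2) or without it (CH1, CH2). Each of these 4 samples was a pool of tissue from 4 embryos at st. 10 to 11, and all their embryos had been electroporated at st. 4 to 5. OH embryos received 0.25 µg of pCAGGS-mOtx2 with 0.2 µg of pCAGGS-EGFP, whereas CH embryos received 0.2 µg of pCAGGS-EGFP and an empty vector. pCAGGS carries a promoter that is active in most cell types, and the share of cells that carried the vectors in each pool was not measured here. The remaining samples were trunk pools with (OT1, OT2) and without (CT1, CT2) exogenous Otx2, and 1 pool each of posterior area opaca, the extraembryonic margin of the blastoderm (OA and CA). The label of CT1 names tissue without electroporation, whereas that of CT2 names tissue without exogenous OTX2.

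Otx2 encodes a homeodomain transcription factor of the bicoid type. In vertebrate embryos the gene is active in the tissue that forms the forebrain and midbrain, and its posterior border against Gbx2 marks the boundary between midbrain and hindbrain. In mouse, Otx2 is also required in the retina and the pineal gland for the formation of photoreceptors and melatonin-producing cells.

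Poly-A RNA was measured as read counts and as TPM, in which counts are corrected for transcript length and scaled to the same total in every sample. The 4 pools held between 30082761 and 39638219 counts, and a count of 0 was read as under 3 reads, between 0.0757 and 0.0997 CPM, which is the count scaled to library size only. Counts of OH, CH, OT and CT were fitted together in edgeR, and 16611 genes passed its filter on low counts. A gene is referred to as called if its p in edgeR's quasi-likelihood test, adjusted over all 16611 genes, was under 0.05. The p-values measure the spread between pools, of which there were 2 in each group. This spread was estimated over OH, CH, OT and CT together, so the trunk pools also entered it. The biological coefficient of variation between the pools of 1 group was also estimated for each pair alone. It was 19.0% for OH, 28.6% for CH, 35.7% for OT and 25.9% for CT.

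Reads of mouse Otx2, 1725 in OH1 and 2731 in OH2, gave levels of 97.4 and 160 TPM, and CH1 and CH2 had none, so that all 4 labels held. OH2 thus carried 1.65 times the mouse Otx2 level of OH1. Set against a floor of 3 counts per library, mouse Otx2 was at least 591-fold higher in OH. EGFP, from the vector that the embryos of all 4 pools received, did not separate the groups, at 1859 and 4481 TPM in OH1 and OH2 against 7368 and 3977 TPM in CH1 and CH2. Chicken OTX2, the endogenous gene, was at 87.8 and 91.8 TPM in OH against 80.2 and 63.2 TPM in CH. Both OH pools stood above both CH pools for OTX2, with an unadjusted p of 0.282 in edgeR.

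The tissue label was then checked with marker genes. SOX2, SOX3, SOX21 and CDH2 of the neural tube, EN1, EN2 and PAX2 of the midbrain, and GBX2 and HOXB1 of the hindbrain were above 0 in all 4 pools, and EGR2 was not analysed here. Markers of other tissues were present as well. Summed over NKX2-5, TNNT2, MYH7 and ACTN2, heart markers were at 390 and 667 TPM in OH1 and OH2, and at 95.1 and 619 TPM in CH1 and CH2. Notochord markers (TBXT, SHH, CHRD) summed to 112 and 115 TPM in OH and to 81.9 and 77.2 TPM in CH, with 3 of 3 above 0 in each pool. The study states that forebrain tissue was left out of the dissected piece. The forebrain markers SIX3, RAX and HESX1 were nevertheless above 0 in all 4 pools.

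The control pools differed from each other more than the Otx2 pools did. Among genes of at least 5 TPM in the higher pool, 333 stood more than 2-fold higher in CH2 than in CH1 (3.14% of 10611 genes) and 73 more than 2-fold higher in CH1 (0.688%). Between the Otx2 pools, 110 genes were past 2-fold with OH1 higher (1.02% of 10745 genes) and 114 with OH2 higher (1.06%). As a Euclidean distance over log2(TPM + 1) of 13839 genes, CH1 and CH2 lay 61.9 apart and OH1 and OH2 43.1 apart. The 4 distances from an OH pool to a CH pool were 56.9 and 59.1 to CH1, and 45.5 and 49.3 to CH2. With all genes, the distance between the controls thus exceeded each distance between an Otx2 pool and a control pool. With W-linked genes left out this order turned, since OH2 lay 54.9 from CH1 and the controls lay 54.4 apart, and with W-linked and forebrain genes left out the distances were 54.8 and 53.8.

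Genes on chromosome W, which in birds is carried by females only, carried more of the distance between the controls than the forebrain, heart, hindbrain, blood or photoreceptor lists. The deposited genes included 155 on chromosome W, of which 94 passed the filter. Their summed level was 1298 and 829 CPM in OH1 and OH2, and 263 and 1723 CPM in CH1 and CH2, a 6.55-fold difference between the controls. Of the 94, 61 had no read in CH1, compared with 2 in CH2, 3 in OH1 and 4 in OH2. HNRNPKL, the W-linked copy of the gene for the RNA-binding protein hnRNP K, was at 114 and 71.5 TPM in OH1 and OH2, and at 0 and 191 TPM in CH1 and CH2. ATP5F1AW, the W-linked copy of the ATP synthase alpha subunit gene, was at 127 and 65.1 TPM in OH, and at 0 and 177 TPM in CH. In both genes the 2 Otx2 pools lay between the controls, and this held for 59 of the 94 W-linked genes (62.8%), compared with 19.2% of all genes tested, CH2 being the highest pool. Of the other W-linked genes named for their level, SKA1 and MBD2 had similar levels in all 4 pools. SKA1 was at 23.0 and 27.2 TPM in OH and at 21.9 and 19.99 TPM in CH, and MBD2 at 19.7 and 22.1 TPM in OH and at 22.7 and 20.5 TPM in CH. ENS-1 was at 20.9 and 21.9 TPM in OH and at 25.2 and 12.6 TPM in CH, so that not every identifier placed on W followed the pattern.

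The 76 W-linked genes among those used for distances made up 0.549% of the genes and 22.9% of the squared distance between CH1 and CH2. They made up 21.0% and 13.6% of the squared distances from OH1 and OH2 to CH1, but 1.52% and 3.85% of those to CH2, and 2.09% of that between OH1 and OH2. Genes on chromosome Z, of which male birds carry a pair of copies and females a single copy, leaned the other way. The median log2 ratio of CH1 to CH2 was 0.03 over 733 Z-linked genes and -0.14 over 14770 autosomal genes. The median log2 ratio of OH1 to OH2 was -0.12 for Z-linked genes, against -0.02 for autosomal genes. The labels give no sex for the embryos in a pool.

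A second difference between the controls lay in forebrain and hindbrain genes. Of the 18 forebrain genes that passed the filter (19 of 20 listed genes were in the table), 17 were higher in CH1 than in CH2. The exception was HESX1, at 7.01 TPM in CH1 and 13.7 TPM in CH2. SIX3, a homeobox gene of the anterior forebrain and eye field, was at 19.7 and 40.7 TPM in OH1 and OH2, and at 78.3 and 13.5 TPM in CH1 and CH2. RAX, another eye field gene, was at 1.63 and 7.91 TPM in OH, and at 12.7 and 0.178 TPM in CH. The eye field gene SIX6 and the anterior forebrain gene FEZF1 had the same order, with 0.820 and 3.89 TPM of SIX6 in OH against 14.4 and 0.244 TPM in CH, and 0.498 and 2.21 TPM of FEZF1 in OH against 7.54 and 0 TPM in CH. LHX2 (0.299 and 1.84 TPM in OH, 5.28 and 0.872 TPM in CH) and LHX9 (2.10 and 4.82 TPM in OH, 8.24 and 1.14 TPM in CH) were likewise uneven. The 10 genes with the highest ratio of CH1 to CH2 also included FZD5, a receptor for Wnt ligands of the eye field (4.63 and 6.41 TPM in OH, 17.5 and 3.60 TPM in CH), and ALDH1A3, which makes retinoic acid (5.20 and 13.3 TPM in OH, 21.7 and 4.52 TPM in CH). By contrast, all 20 hindbrain genes tested were higher in CH2 than in CH1, with a median ratio of 1.73, beside 63.4% of all genes tested that were higher in CH2. HOXA2 was at 7.43 and 11.2 TPM in OH and at 6.51 and 18.1 TPM in CH, and HOXB1 at 12.4 and 13.0 TPM in OH and at 7.99 and 18.9 TPM in CH. Both genes act in hindbrain segments. The order did not extend to the 15 spinal cord and trunk HOX genes tested, of which 6 were higher in CH1 and 8 in CH2. Hindbrain genes were also not alone in leaning to CH2, since 15 of 17 endothelial genes did so.

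The Otx2 pools were uneven in some of the same groups. All 18 forebrain genes were higher in OH2 than in OH1, with a median ratio of 1.71, while 52.7% of all genes tested were higher in OH2. Hindbrain genes were divided, with 10 higher in each OH pool. Head mesenchyme genes were higher in OH1 for 20 of 21, and endoderm genes for 14 of 15, with APOA1 at 789 and 203 TPM and TTR at 972 and 379 TPM in OH1 and OH2.

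Heart genes formed a further uneven group, and 16 of 17 were higher in CH2 than in CH1, with a median ratio of 3.06. TNNT2, cardiac troponin T, was at 313 and 536 TPM in OH1 and OH2, and at 65.1 and 485 TPM in CH1 and CH2. MYL2, a myosin light chain of heart muscle, was at 518 and 812 TPM in OH, and at 71.8 and 792 TPM in CH. The sarcomeric protein gene ACTN2 was at 20.7 and 49.5 TPM in OH, and at 1.93 and 59.7 TPM in CH. In each of these 3 genes CH1 stood apart, below the other 3 pools. Fewer cells of a type and less RNA per cell cannot be told apart in pooled tissue.

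**Figure D1:**
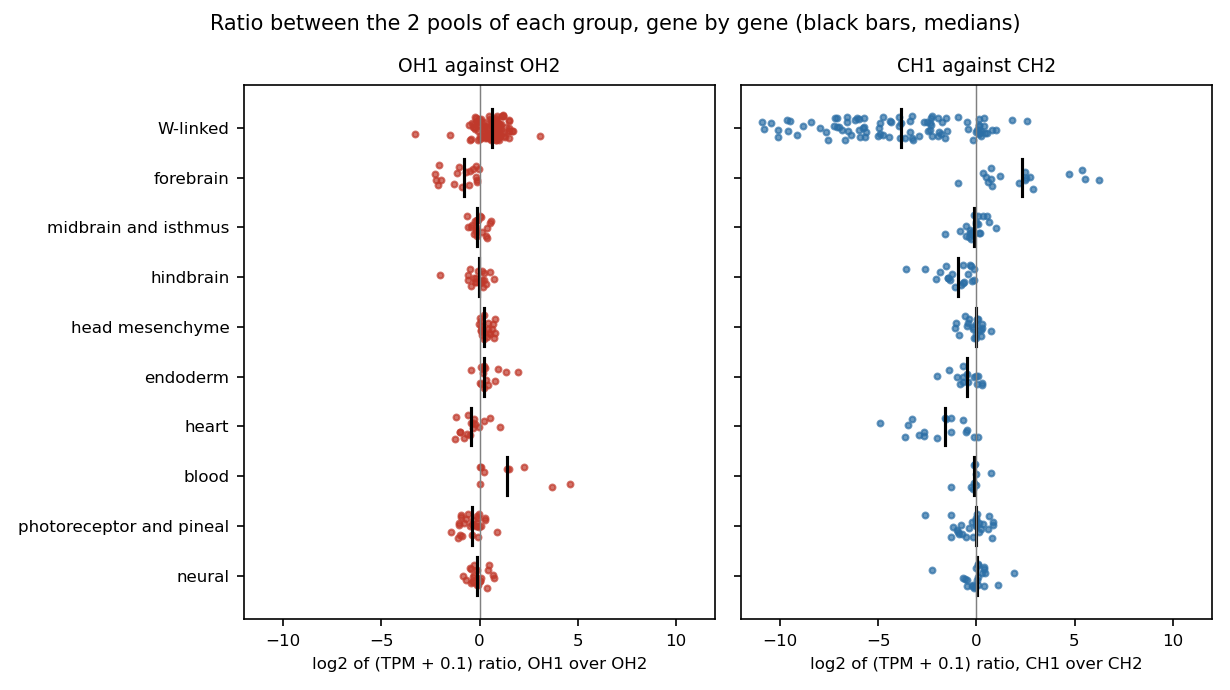
Log2 ratio of (TPM + 0.1) between the pools of each group, with OH1 over OH2 on the left and CH1 over CH2 on the right. Each point is a gene that passed the filter and black bars are medians. In the Otx2 panel 18 of 18 forebrain genes were higher in OH2. In the control panel 76 of 94 W-linked, 20 of 20 hindbrain and 16 of 17 heart genes were higher in CH2, and 17 of 18 forebrain genes higher in CH1.

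Between OH and CH, 6 genes were called, and all 6 were higher in OH (0.0361% of the genes tested). Mouse Otx2 was 1 of them, and the others were TMEM233, GNB3, DRCC1, LOC121113056 and TMEM109. At an unadjusted p under 0.05 there were 379 genes higher in OH (2.28%) and 80 lower in OH (0.482%). The pools did not overlap for 3201 genes higher in OH (19.3%) and 2120 lower in OH (12.8%). The median log2 fold change of all genes tested was 0.01.

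GNB3 encodes the beta subunit of the G protein that couples cone opsins to their effector. Its level was 36.9 and 55.6 TPM in OH1 and OH2, against 1.87 and 2.21 TPM in CH1 and CH2. The pools of the groups were far apart and the rise was 4.28 ± 0.30 (log2, standard error; edgeR adjusted p = 0.0174). A single transcript carried it, with 1427 and 2086 reads in OH and 18 and 24 reads in CH, while the other annotated transcript had 22 and 12 reads in OH and 48 and 57 reads in CH. DRCC1 (chromosome 4, 82686578 to 82699904 on the GRCg7w assembly) was at 6.57 and 8.58 TPM in OH against 0.749 and 0.813 TPM in CH, and its rise was 3.23 ± 0.30 (log2, standard error; edgeR adjusted p = 0.0345). TMEM233 (chromosome 15, 9655527 to 9669227), a small transmembrane protein gene, was at 10.3 and 8.02 TPM in OH against 0.216 and 0.149 TPM in CH, from 8 and 6 reads in CH. The rise was 5.46 ± 0.54 (log2, standard error; edgeR adjusted p = 0.0432).

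TMEM109 and LOC121113056 were called as well, but their levels in the other tissues did not follow exogenous Otx2. TMEM109 (chromosome 5, 226528 to 228765), which encodes a transmembrane protein, was at 23.9 and 24.1 TPM in OH against 2.54 and 3.02 TPM in CH (log2 2.89 ± 0.21, standard error; edgeR adjusted p = 0.0174). In the trunk it was at 17.0 and 19.6 TPM in OT and at 22.1 and 21.9 TPM in CT, and in the area opaca at 3.56 TPM in OA and 15.6 TPM in CA. The controls of the midbrain-hindbrain and OA therefore stood apart from the other 7 samples. One of its annotated transcripts, variant X1, had 498 and 520 reads in OH1 and OH2, none in CH1, CH2 and OA, and between 308 and 513 reads in the other 5 samples. The first bases of TMEM109 overlap the end of PRPF19, a splicing factor gene that ends at 226565 and had between 10002 and 13281 reads in the 4 pools. LOC121113056, annotated as symplekin-like on an unplaced scaffold, had 106 and 115 reads in OH and none in CH, at least 29.3-fold higher in OH against the floor of 3 counts per library. It also had reads in both trunk groups and both area opaca samples, at 2.01 and 2.17 TPM in OT, 21.8 and 3.20 TPM in CT, 1.72 TPM in OA and 1.96 TPM in CA. Of the level in CT1, 21.5 TPM came from 84 reads of an annotated transcript without a read in any other sample. CT2 had 129 reads, all of the other annotated transcript, so the TPM of the CT pools rested on different transcripts. For both genes the brain and trunk differences were unequal (adjusted p = 0.025 for each in edgeR's interaction test).

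The 20 gene lists were chosen with earlier results of these data known. Among them, that of photoreceptor and pineal genes had the most members past the unadjusted threshold. Its rank and shares are thus a description and not a test. Of 48 listed genes 36 were in the table and 28 passed the filter. Of these, 13 had an unadjusted p under 0.05 with OH higher and 0 with OH lower, beside 2.28% and 0.482% of all genes tested. Both OH pools stood above both CH pools in 19 of the 28 and below them in 0. The list's median log2 fold change was 1.33, also with the 3 members that had no read in CH set at their lower bound, while all genes tested had a median of 0.01. Apart from GNB3, 0 members were called.

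Several members act in the cone phototransduction cascade. ARR3 (chromosome 4, 1232611 to 1239245), cone arrestin, had no read in CH and was at 16.6 and 31.6 TPM in OH1 and OH2, from 509 and 931 reads. Against the floor ARR3 stood at least 191-fold higher in OH (unadjusted p = 6.28e-05, adjusted p = 0.149 in edgeR). GNAT2, the cone transducin alpha subunit, was at 2.79 and 5.73 TPM in OH against 0 and 0.146 TPM in CH. PDC, phosducin, which binds the transducin beta and gamma subunits, was at 3.94 and 8.15 TPM in OH against 0.0833 and 0 TPM in CH. GUCA1A, an activator of the guanylate cyclase of photoreceptors, had no read in CH and was at 0.957 and 2.10 TPM in OH, at least 17.9-fold higher. In each of these 4 genes both OH pools stood above both CH pools and OH2 above OH1.

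The remaining 8 of the 13 were named after their values were seen. GNGT2, a transducin gamma subunit, was at 3.80 and 5.32 TPM in OH against 0 and 0.515 TPM in CH. The cone phosphodiesterase genes were PDE6C, at 0.322 and 0.332 TPM in OH and without a read in CH, and PDE6H, at 12.6 and 24.5 TPM in OH against 6.29 and 6.09 TPM in CH. NR2E3, a nuclear receptor of photoreceptors, was at 2.43 and 5.29 TPM in OH against 0.553 and 1.01 TPM in CH. IMPG1, of the matrix around photoreceptors, and TULP1, a tubby-like photoreceptor protein, stayed under 1 TPM in all 4 pools. The last pair are enzymes of melatonin synthesis in the pineal gland. TPH1 was at 12.3 and 15.7 TPM in OH against 4.76 and 4.29 TPM in CH, and AANAT at 6.69 and 7.30 TPM in OH against 1.68 and 1.04 TPM in CH. Members without a difference past the threshold included UNC119 (31.7 and 33.2 TPM in OH, 26.4 and 22.6 TPM in CH) and PDE6D (33.7 and 35.5 TPM in OH, 33.1 and 42.5 TPM in CH).

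**Figure D2:**
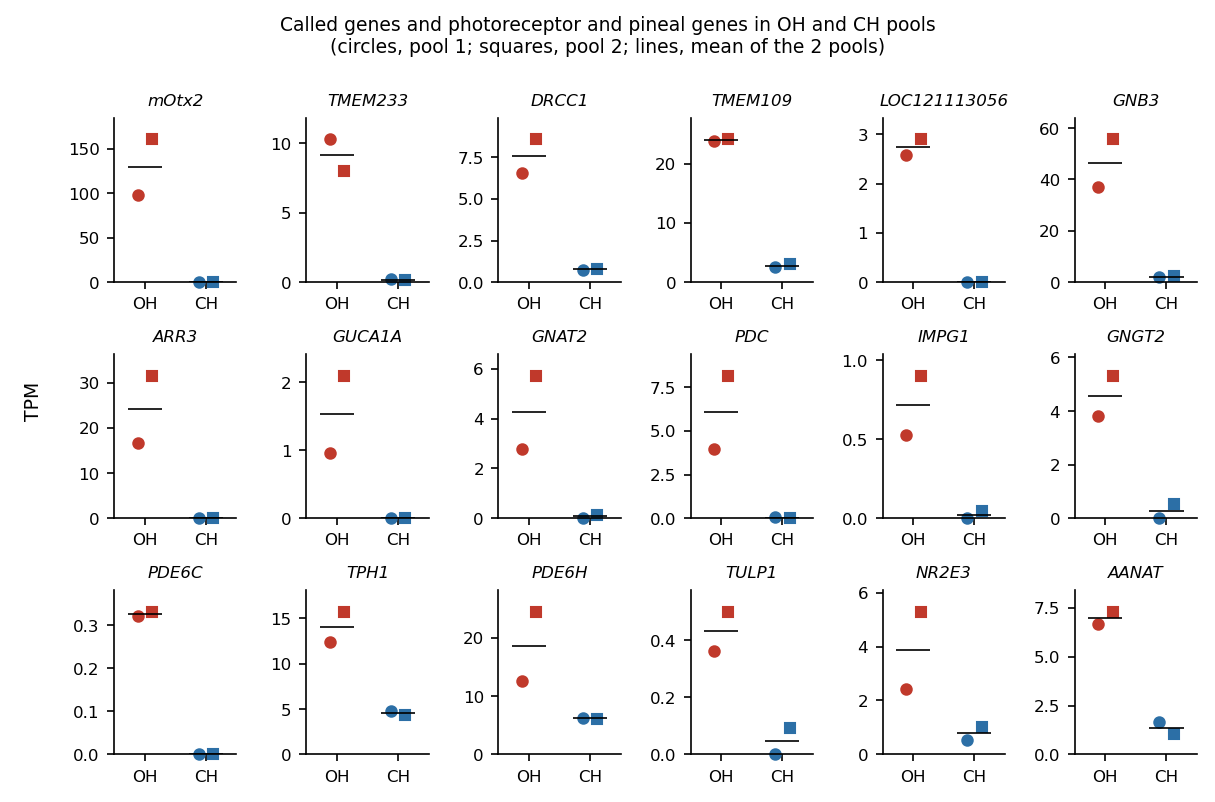
TPM of mouse Otx2, the other 5 called genes and the 13 photoreceptor and pineal genes with an unadjusted p under 0.05, each on its own linear axis from 0. GNB3 belongs to both sets, circles and squares are pools 1 and 2, and lines are the mean of the pools. In all 18 panels both OH pools lay above both CH pools, and in 13 of 13 photoreceptor and pineal genes OH2 lay above OH1.

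All 13 genes were higher in OH2 than in OH1, the order of mouse Otx2 itself. Over all genes tested 52.7% were higher in OH2, and 70.7% of the 379 genes higher in OH at an unadjusted p under 0.05 were. The forebrain list (18 of 18) and EGFP from the other vector had the same order between the Otx2 pools. The levels of exogenous Otx2, EGFP and forebrain genes thus moved together between OH1 and OH2, and their parts in this order cannot be told apart. CH1, whose forebrain and EGFP levels were the highest of the 4 pools, had 0 reads for ARR3, GUCA1A, GNAT2, GNGT2, PDE6C, IMPG1 and TULP1. Of these, ARR3, GUCA1A and PDE6C had no read in CH2 either. AANAT, TPH1, PDE6H and PDC were higher in CH1 than in CH2, and GNB3 and NR2E3 were higher in CH2. A dependence of these genes on the forebrain or EGFP level was not tested.

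The trunk pools share no sample with the brain pools, but they were not an independent check. They were part of the same fit, and the list was chosen with earlier results of these data known. Of the 13 genes, 13 were called between OT and CT with OT higher (4.29% of all genes tested were). None was called in the interaction test between brain and trunk at an adjusted p under 0.05, where 0.223% of all genes were. With so few calls over all genes, this does not show that the brain and trunk responses were equal. GNB3 was at 65.6 and 103 TPM in OT against 1.66 and 1.29 TPM in CT, and ARR3 at 73.5 and 154 TPM in OT against 0 TPM in both CT pools. In the area opaca 12 of the 13 were higher in OA than in CA, GNAT2 being the exception (0 TPM in OA, 0.584 TPM in CA). With 1 library on each side, 9845 of all 16611 genes tested were also higher in OA, as were 305 of the 379 genes higher in OH at an unadjusted p under 0.05. DRCC1 and TMEM233 were called in the trunk as well, with log2 fold changes of 4.07 (adjusted p = 0.0042) and 5.76 (adjusted p = 0.00542) in edgeR. CT1 had 1.12 TPM of EGFP and CT2 15328 TPM, and the labels of the trunk controls disagree on whether they were electroporated.

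Among the other genes with an assigned symbol and at least 5 TPM, those with the highest fold changes past the unadjusted threshold were C21orf58, GBE and SST1. C21orf58 was at 3.53 and 12.2 TPM in OH against 0.631 and 0.830 TPM in CH. GBE, annotated as eye-globin, was at 12.7 and 18.8 TPM in OH against 2.78 and 1.42 TPM in CH. SST1, the neuropeptide somatostatin, was at 19.0 and 40.8 TPM in OH against 7.56 and 3.68 TPM in CH. In these 3 genes the groups did not overlap and OH2 was the highest pool.

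Among 21 midbrain and isthmus genes tested, 1 had an unadjusted p under 0.05 with OH higher and 1 with OH lower. Over all genes these shares were 2.28% and 0.482%, and 0 of the 21 were called. Both OH pools stood above both CH pools in 7 of the 21 and below them in 5, beside 19.3% and 12.8% of all genes. DMBX1, a homeobox gene of the midbrain, was at 55.8 and 59.7 TPM in OH against 20.9 and 18.6 TPM in CH, a log2 fold change of 1.52 (standard error 0.39, unadjusted p = 0.00788). PAX5, a gene of the isthmus, was at 3.42 and 2.30 TPM in OH against 5.18 and 5.29 TPM in CH (log2 fold change -0.90, standard error 0.34, unadjusted p = 0.0353). EN2 was at 18.2 and 12.8 TPM in OH against 29.2 and 26.9 TPM in CH, and EN1 at 34.4 and 32.4 TPM in OH against 25.2 and 23.9 TPM in CH. These engrailed genes thus stood in opposite directions, neither past the unadjusted threshold (edgeR's unadjusted p = 0.0856 for EN2 and 0.476 for EN1). GBX2, which opposes Otx2 at the boundary, was at 36.2 and 44.4 TPM in OH against 50.2 and 73.3 TPM in CH (unadjusted p = 0.143).

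In the forebrain list 0 of 18 genes had an unadjusted p under 0.05 in either direction, and the median log2 fold change was -0.40. Without overlap, 3 were higher and 2 lower in OH, close to the 19.3% and 12.8% of all genes. WNT8B was at 7.73 and 10.8 TPM in OH against 5.59 and 2.35 TPM in CH, and NKX2-1 at 4.56 and 5.12 TPM in OH against 3.30 and 1.86 TPM in CH. BARHL2 was at 3.17 and 5.91 TPM in OH against 2.50 and 0.255 TPM in CH. Levels of HESX1, FOXD1 and EMX2 overlapped between the groups, within 3.40 and 13.7 TPM over the 4 pools. For SIX3, RAX, SIX6, LHX9 and FEZF1 both OH pools lay between CH1 and CH2, and standard errors of the log2 fold change ran from 1.00 for SIX3 to 1.92 for FEZF1.

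Of 20 hindbrain genes tested, 0 had an unadjusted p under 0.05 with OH higher and 1 with OH lower, and 0 were called. Without overlap, 2 were higher and 3 lower in OH, beside 19.3% and 12.8% of all genes. CYP26C1, which degrades retinoic acid, was at 149 and 105 TPM in OH against 120 and 131 TPM in CH, and HOXA5 of the more posterior HOX genes at 2.30 and 1.25 TPM in OH against 1.70 and 1.85 TPM in CH. Among 15 spinal cord and trunk HOX genes tested, 0 had an unadjusted p under 0.05, and without overlap 0 were higher and 4 lower in OH.

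**Figure D3:**
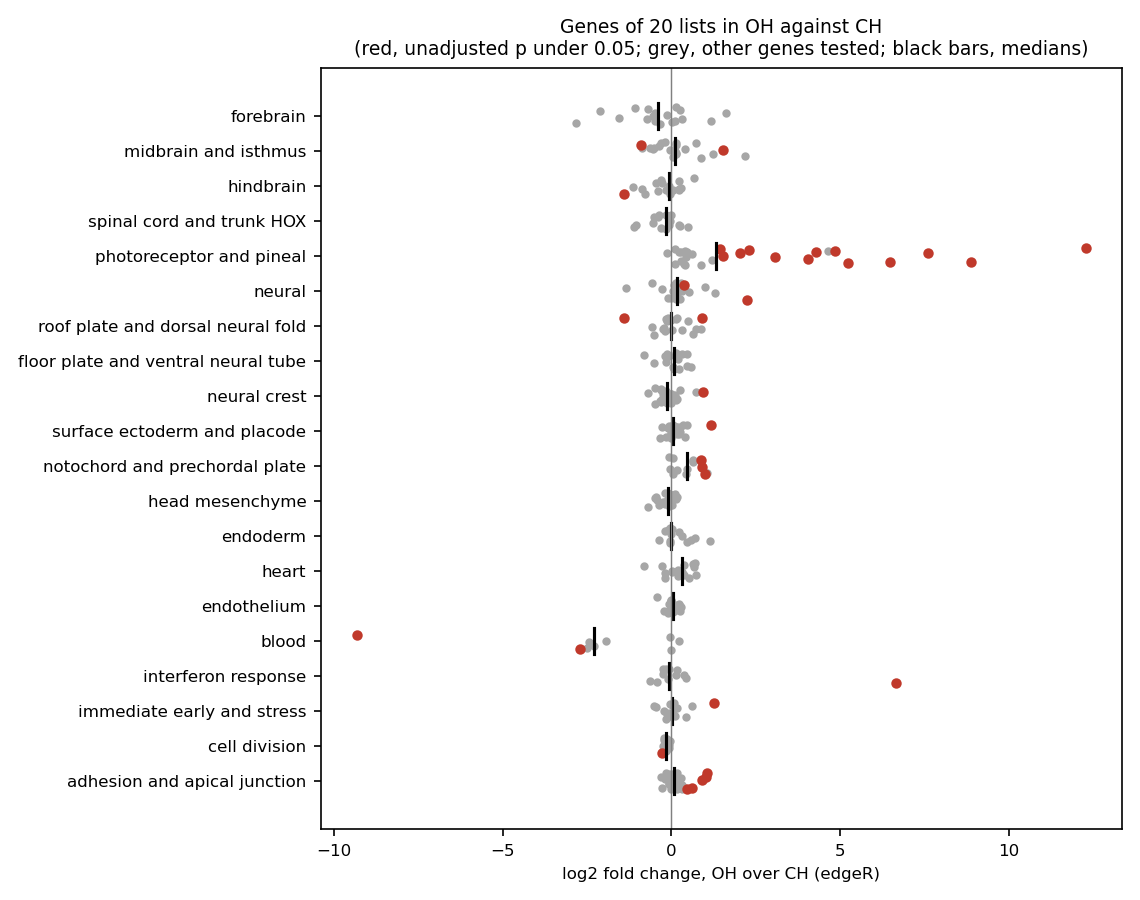
Log2 fold change of OH over CH for the tested genes of 20 lists, with genes at an unadjusted p under 0.05 in red, other genes in grey and medians as black bars. The photoreceptor and pineal list had 13 red points, all to the right of 0, the blood list had its median at -2.28, and the medians of most other lists lay near 0.

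Of 13 notochord and prechordal plate genes tested, 9 lay above both CH pools and 0 below, beside 19.3% and 12.8% of all genes, and the median log2 fold change was 0.46. Of these genes 3 had an unadjusted p under 0.05 and 0 were called. CHRD, a secreted BMP antagonist, was at 50.4 and 55.4 TPM in OH against 27.0 and 28.6 TPM in CH. TBXT, the notochord and primitive streak gene brachyury, was at 14.6 and 13.4 TPM in OH against 6.69 and 7.73 TPM in CH. NOTO, a homeobox gene of the node and notochord, was at 7.88 and 9.90 TPM in OH against 4.70 and 4.17 TPM in CH. The groups did not overlap in these 3 genes, and for CHRD and TBXT the trunk had the opposite order, with log2 fold changes of -1.98 for CHRD and -2.71 for TBXT in OT against CT. The brain and trunk differences were unequal in the interaction test (adjusted p = 0.0396 for CHRD and 0.0336 for TBXT in edgeR). SHH, which the notochord and floor plate secrete, was at 47.3 and 46.6 TPM in OH against 48.2 and 40.9 TPM in CH, and COL2A1 at 211 and 242 TPM in OH against 203 and 195 TPM in CH.

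Adhesion and apical junction genes had 5 of 34 tested members with an unadjusted p under 0.05 and OH higher, 0 with OH lower and 0 called, beside 2.28% higher and 0.482% lower of all genes. FN1, fibronectin, was at 310 and 410 TPM in OH against 161 and 214 TPM in CH (log2 fold change 0.92, standard error 0.20, unadjusted p = 0.00213). LAMA5, a laminin chain of basement membranes, was at 65.4 and 82.7 TPM in OH against 48.7 and 45.3 TPM in CH. The ephrin receptor gene EPHA7 was at 16.2 and 25.8 TPM in OH against 9.55 and 11.0 TPM in CH, and CDH4, a classical cadherin, at 6.31 and 7.002 TPM in OH against 2.26 and 4.17 TPM in CH. CELSR1, of the planar polarity pathway, was at 24.8 and 30.2 TPM in OH against 20.7 and 18.5 TPM in CH. In this list 28 of 34 genes (82.4%) were higher in OH2 than in OH1, beside 52.7% of all genes tested, so the Otx2 pools were also uneven. Between the controls 25 of 34 (73.5%) were higher in CH2, beside 63.4% of all genes tested.

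Single genes of other lists passed the same threshold with OH higher. Over all genes 2.28% passed it with OH higher and 0.482% with OH lower, so a single gene says little about a short list. Of 19 roof plate and dorsal neural fold genes tested, 1 passed with OH higher and 1 with OH lower. Among 22 neural genes those with OH higher were OLIG2 (6.83 and 11.1 TPM in OH, 2.89 and 0.678 TPM in CH) and the receptor gene NOTCH1 (40.8 and 50.5 TPM in OH, 35.9 and 33.5 TPM in CH). SOX9, of neural crest and other progenitors, was at 18.4 and 22.7 TPM in OH against 8.68 and 12.6 TPM in CH. The ligand genes WNT3A, of the dorsal midline, and WNT6, of the surface ectoderm, were at 6.65 and 8.51 TPM and at 17.2 and 15.8 TPM in OH, against 3.58 and 4.38 TPM and 7.78 and 7.57 TPM in CH. DDIT4, a stress-responsive inhibitor of growth signalling, was at 690 and 424 TPM in OH against 174 and 288 TPM in CH. IFI6, an interferon-induced gene, had 22 and 7 reads in OH and none in CH, and was the 1 of 12 interferon response genes tested to pass the threshold. SOX10 of the migrating neural crest was at 24.5 and 27.0 TPM in OH against 29.9 and 32.4 TPM in CH, past no threshold.

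Of 9 blood genes tested (11 of 20 listed genes were in the table), 6 were below both CH pools and 1, CD34, above, 2 had an unadjusted p under 0.05 with OH lower and 0 were called. Over all genes 12.8% lay below both CH pools, 19.3% above, and 0.482% had an unadjusted p under 0.05 with OH lower. The list's median log2 fold change was -2.28. HBZ, an embryonic alpha-type globin, was at 131 and 26.9 TPM in OH1 and OH2 against 370 and 391 TPM in CH1 and CH2. HBE was at 61.5 and 4.65 TPM in OH against 171 and 185 TPM in CH. HBBA, a beta-type globin, had no read in OH and 4.34 and 10.6 TPM in CH, at least 31.0-fold lower against the floor of 3 counts per library. The erythroid regulator GFI1B was at 0.181 and 0 TPM in OH against 0.774 and 0.419 TPM in CH. Within OH, pool 1 had more blood transcripts than pool 2 in all 7 tested genes that differed between them, whereas the control pools were close, with summed levels of 801 and 866 TPM. The 17 endothelial genes had a median log2 fold change of 0.06, and CDH5 was at 47.9 and 40.2 TPM in OH against 33.1 and 49.1 TPM in CH.

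Of 22 cell division genes tested, 13 lay below both CH pools and 0 above, beside 12.8% and 19.3% of all genes, 1 had an unadjusted p under 0.05, and the median log2 fold change was -0.17. BUB1, a kinase of the spindle checkpoint, was at 60.5 and 66.0 TPM in OH against 72.7 and 76.3 TPM in CH (log2 fold change -0.26, standard error 0.10, unadjusted p = 0.0317). PCNA, the DNA polymerase clamp, was at 667 and 646 TPM in OH against 760 and 749 TPM in CH. TOP2A overlapped between the groups, at 219 and 239 TPM in OH and 228 and 251 TPM in CH.

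The 10 genes furthest below control with an unadjusted p under 0.05, at least 5 TPM and no overlap included HBBA, PAX5 and RRH. PAX5 and the other 7 differed by less than 2-fold. CKB, creatine kinase B, was at 369 and 376 TPM in OH against 525 and 489 TPM in CH. COL9A3, a collagen IX chain, was at 18.8 and 16.9 TPM in OH against 30.2 and 24.1 TPM in CH. MXRA8, BHMT2, TRUB1, GFRA2 and SLC25A32 had log2 fold changes between -0.73 for BHMT2 and -0.47 for SLC25A32, with standard errors from 0.16 to 0.26. None of the 10 was called, with an adjusted p of 1 throughout.

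RRH, which encodes peropsin, a receptor of the opsin family, also met this rule but shares its locus with another gene. RRH spans 57621516 to 57658444 on chromosome 4, and GAR1, a component of small nucleolar RNA-protein complexes, lies within this span, from 57638895 to the same end. RRH had 1908 and 2787 reads in OH and 5976 and 2929 reads in CH. GAR1 had 5898 and 4930 reads in OH, and 372 and 4067 reads in CH. Summed over the pair, the levels were 197 and 195 CPM in OH and 211 and 211 CPM in CH, and GAR1 took 75.6% and 63.9% of the summed reads in OH, against 5.86% and 58.1% in CH. The summed level was thus nearly even while the division between the genes was not, and CH1 alone stood apart. The log2 fold change of RRH was -1.27 with all pools and -0.54 without CH1.

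**Figure D4:**
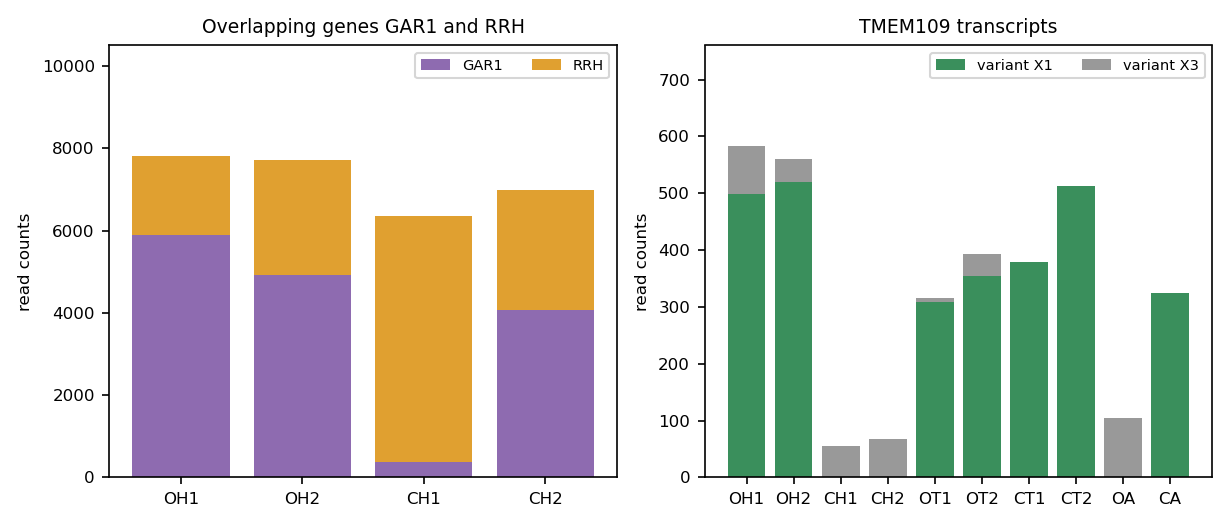
Read counts of the overlapping genes GAR1 and RRH in the 4 midbrain-hindbrain pools (left) and of the annotated TMEM109 transcripts in all 10 samples (right), stacked. GAR1 had 372 reads in CH1 and at least 4067 in the other 3 pools, and TMEM109 variant X1 had no read in CH1, CH2 and OA.

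The response was then refitted with W-linked and forebrain levels taken into account. Without covariates 0 of 94 W-linked genes were called and 1 had an unadjusted p under 0.05, and leaving all 155 out before normalization gave the same 6 calls. With the summed W-linked level as a covariate 3 genes were called, of which 2, mouse Otx2 and GNB3, were among the 6. With the forebrain level as a covariate 2 were called, again mouse Otx2 and GNB3. W-linked genes at an unadjusted p under 0.05 numbered 21 with the W-linked covariate and 38 with the forebrain covariate. With both covariates, which left 2 residual degrees of freedom, 0 genes were called and 622 had an unadjusted p under 0.05, against 459 without covariates. In each group fitted, the pool with the higher W-linked level had the lower forebrain level, so this fit could hardly separate the covariates. The log2 fold changes with both covariates were 3.27 for GNB3 and 2.77 for TMEM109. With the heart level as a covariate, a setting added after the data had been seen, 0 were called and 480 had an unadjusted p under 0.05.

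Each control pool was also left out in turn, with the lone remaining pool assumed to vary like the pools of the other groups. Without CH2, 29 genes were called, 28 of them higher in OH (0.162% of 17253 genes tested). These comprised 4 of the 6 genes above, 19 W-linked genes, and MYL2, MYL3, MYBPC3 and GAR1 among the others, the last 4 named after their values were seen. CH1, the control left in that fit, had no read for 61 of the 94 W-linked genes. Without CH1, 0 genes were called in edgeR and 492 had an unadjusted p under 0.05, and 0 were called without CT1 or without CT2 as well. The log2 fold changes without CH1 were 4.23 for GNB3 and 2.85 for TMEM109, close to the values with all pools, 4.28 and 2.89. Without OH1 only GNB3 was called, and without OH2 0 genes were called, with 317 at an unadjusted p under 0.05. DESeq2 called 62 genes, of which 58 were higher in OH (0.349%), with all 6 of edgeR among them, 9 of the photoreceptor and pineal list and 0 W-linked.

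The number of photoreceptor and pineal genes with an unadjusted p under 0.05 and OH higher was 13 in the fit to all 8 samples. It was 5 with both covariates and between 9 and 15 under the other 19 alternatives. Over all genes the corresponding number was 379, with 440 under both covariates and between 242 and 616 over all alternatives. Called members of the list numbered between 0 and 9, the highest with DESeq2. The list's median log2 fold change lay between 0.41 and 1.49 over all alternatives. The median of the forebrain list moved between -0.78 and 1.36 over the same settings and so changed sign.

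**Figure D5:**
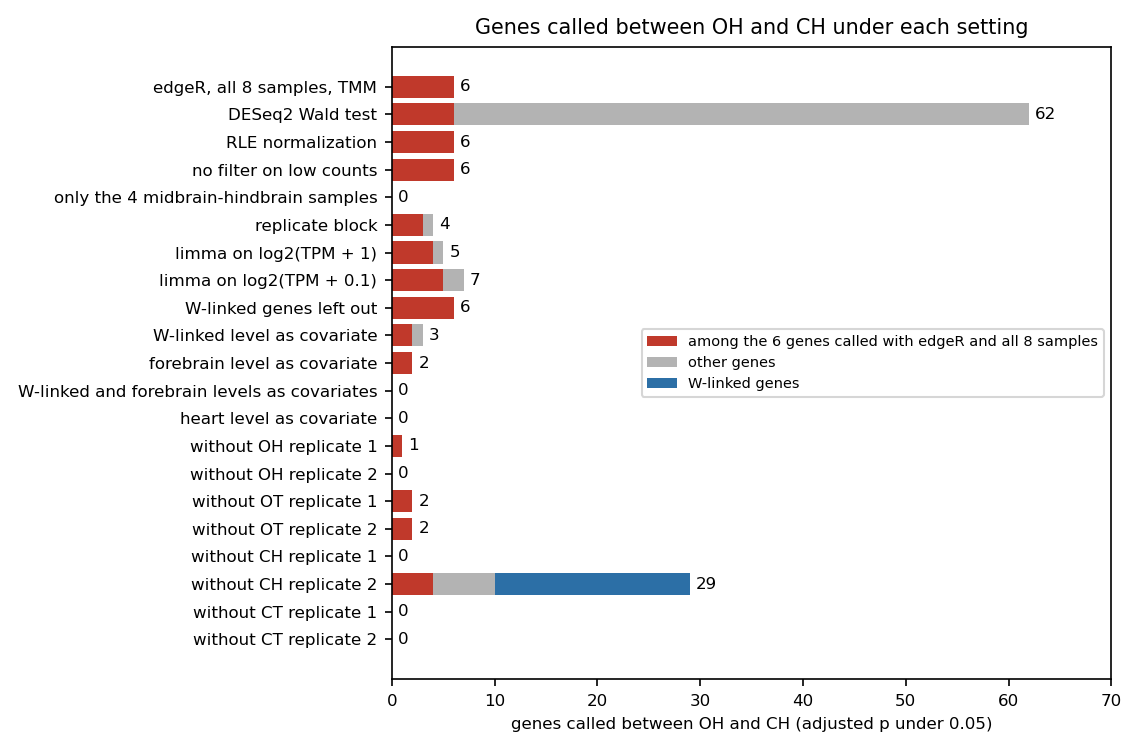
Number of genes called between OH and CH at an adjusted p under 0.05 under each setting, with the 6 genes of the fit to all 8 samples in red, W-linked genes in blue and other genes in grey. W-linked genes were called only when CH2 was left out, 19 of 29, and DESeq2 made the most calls, 62.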

How the data were processed

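Poly-A RNA of 10 pooled chicken samples was sequenced as 100 bp paired-end reads. The authors quantified genes with StringTie on GRCg7w with mouse Otx2 and EGFP sequences added, and the aligner, tool versions and strand setting are not given in the sources used here. Per the file headers, the deposited values were raw read counts and TPM for each sample, and 20 FPKM columns were not used. Each of the 25443 gene counts equalled the sum over its transcripts, and reads of overlapping genes or transcripts may have been divided unevenly.

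Counts of OH, CH, OT and CT were fitted with edgeR 4.0.16 (R 4.3.3, filterByExpr, TMM normalization, 1 coefficient per group, quasi-likelihood F-test), which left 4 residual degrees of freedom and removed 8832 genes. P-values were adjusted by the method of Benjamini and Hochberg. No label states that pools of a group came from separate experiments. Fold bounds used a floor of 3 counts per library, covering counting error only. Each deposited sequence took the chromosome of most of its genes matched by identifier to the GRCg7b gene table (23112 matched). A gene without such a placement took the chromosome of its own match. W-linked genes were those placed on W by either source. Other coordinates came from the deposited files.

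Gene lists (20, of which 367 of 418 distinct genes matched by symbol) and the genes examined were chosen with earlier results of these data known. Genes were named if called; if among the 10 largest rises or falls with an assigned symbol, off chromosome W, at an unadjusted p under 0.05, 5 TPM and no overlap; if forebrain genes of 5 TPM; if among the 5 highest W-linked genes or the 10 largest ratios between control pools, in each direction, with an assigned symbol; if the study names them for this tissue; or as up to 4 members per other list. Alternatives were DESeq2 1.42.0, limma 3.58.1 on log2(TPM + 1) or log2(TPM + 0.1), RLE scaling, no filter, the 4 brain samples alone, a replicate block, covariates, W-linked genes left out, and each pool left out. The heart covariate, and the recount of photoreceptor genes under each alternative, were added after seeing the data. The fits were tested on simulated data. Some genes that the rule names are not reported here.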

Additional observations from a re-analysis of the deposited data

Results flagged for a closer look

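For 6 named genes the difference between OH and CH was not equal to the difference between OT and CT in edgeR's interaction test. The adjusted p was 0.025 for DMBX1, TMEM109 and LOC121113056, 0.0336 for TBXT, 0.0368 for chicken OTX2 and 0.0396 for CHRD. DMBX1 was at 21.6 and 55.9 TPM in OT and had no read in CT, whereas in the brain it was at 55.8 and 59.7 TPM in OH against 20.9 and 18.6 TPM in CH. Chicken OTX2 was at 4.46 and 5.37 TPM in OT against 0.0647 and 0.337 TPM in CT, a log2 fold change of 4.24, compared with 0.30 in the brain. TBXT was at 38.3 and 21.4 TPM in OT against 214 and 192 TPM in CT, the opposite direction to the brain.

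The area opaca samples, 1 per condition and so without a replicate check, carried a signal of at least 5 TPM for 3 of the called genes. Mouse Otx2 was at 139 TPM in OA and had no read in CA. GNB3 was at 20.5 TPM in OA and 0.953 TPM in CA, and DRCC1 was at 6.90 TPM in OA and 1.34 TPM in CA. TMEM233 was lower, at 0.678 TPM in OA, and had no read in CA.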

How the results depend on the processing

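The number of genes called between OH and CH, 6 in the fit to all 8 samples, stayed at 6 with RLE scaling, without the filter and without W-linked genes, and was 5 and 7 with limma at pseudocounts of 1 and 0.1. It was 62 with DESeq2, 0 with the 4 brain samples alone (750 at an unadjusted p under 0.05), 3 with the W-linked covariate, 2 with the forebrain covariate, 0 with both, 0 with the heart covariate, and between 0 and 29 with 1 pool left out, 0 also without CT1 or CT2. GNB3 was called in 13 of 20 alternatives, TMEM109 and mouse Otx2 in 10, TMEM233 in 6, and DRCC1 and LOC121113056 in 5. The 37 interaction calls became 786 with DESeq2, 3 and 8 with limma at pseudocounts of 1 and 0.1, 0 with each of the 4 covariate fits, and between 0 and 258 with 1 pool left out. Photoreceptor and pineal genes past the unadjusted threshold numbered 5 with the W-linked and forebrain covariates together. Of 819 log2 fold changes recomputed for 41 genes, 730 kept their direction and side of the threshold, 71 lost it, 14 gained it and 4 reversed, all with both covariates: CDH4 (-0.28), EPHA7 (-0.39), GFI1B (1.13) and PAX5 (0.21). These covariates stood in opposite order between the pools of each group, and the cause of the reversals was not tested. With a minimum of 1 TPM, genes past 2-fold numbered 334 (OH1 higher), 344 (OH2 higher), 237 (CH1 higher) and 793 (CH2 higher), and with 10 TPM 58, 74, 42 and 218. Mouse Otx2 relative to chicken OTX2 was 0.524 in OH1 and 0.781 in OH2 by CPM, against 1.11 and 1.75 by TPM.

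Pools of the same number did not deviate together (correlation of OH1 with CH1 -0.04). With the number as a replicate block 4 genes were called, 3 of them among the 6, and the interaction had 0 calls.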
